A study of Homo sapiens with 4 samples.

Results

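Desmosomes are the junctions that rivet neighbouring epithelial cells together and tie those rivets to the intermediate filaments inside each cell. The desmosome genes described here are 10 names, PKP1, PKP2, PKP3, JUP, DSP, DSG2, DSG3, DSC2, DSC3 and PERP, taken by gene name from a list made with earlier results of these data known, and all 10 were found among the 37810 names of the deposited table. Total RNA was taken from 2 breast epithelial lines 48 h after transfection with small interfering RNA (siRNA) at 20 nM, and each culture was read on 1 Illumina BeadChip array. The 4 groups were MDA-MB-231 with FOXF2 siRNA, MDA-MB-231 with control siRNA, MCF10A with FOXF2 siRNA and MCF10A with control siRNA, with 1 array each. MDA-MB-231 cells come from a metastatic breast cancer, and MCF10A cells are immortalized and non-tumorigenic; FOXF2 is a forkhead transcription factor whose target genes the study set out to find. Nothing in the labels says that the arrays of a line are replicate cultures, and precision is limited by their number. The SEs and p-values of the main limma fit below take their spread from genes of similar brightness, not from each gene's own arrays. The sequence of the siRNA, and whether more than one was used, is not given in the sources used here.

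In a desmosome, the extracellular contacts are made by 2 kinds of cadherin, the desmogleins (DSG genes) and the desmocollins (DSC genes). Their tails bind the armadillo-repeat proteins plakoglobin (JUP) and the plakophilins (PKP genes), and these bind desmoplakin (DSP), which anchors keratin filaments. DSG2 and DSC2 are the broadly used cadherins, found also in simple epithelia and heart muscle, whereas DSG3 and DSC3 are typical of the basal layers of stratified epithelia. PERP is a membrane protein with several membrane spans that is needed for stable desmosomes in stratified epithelia of mice. Basal breast epithelium also makes desmosomes.

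The promoter sequences of the 4 members with the largest fitted differences between the lines are shown because they differ widely in base composition although all 4 genes were lower in MDA-MB-231. Each run is the 250 bases before the RefSeq gene start (GRCh38.p14), written in the direction of the gene, and capitals mark matches of 3 short motifs on either strand: TAAACA, the forkhead core; CACCTG, the E-box used by SNAI and ZEB repressors; and GGGCGG, the GC box, whose matches may overlap one another.
DSG3, chr18:31447491-31447740, plus strand: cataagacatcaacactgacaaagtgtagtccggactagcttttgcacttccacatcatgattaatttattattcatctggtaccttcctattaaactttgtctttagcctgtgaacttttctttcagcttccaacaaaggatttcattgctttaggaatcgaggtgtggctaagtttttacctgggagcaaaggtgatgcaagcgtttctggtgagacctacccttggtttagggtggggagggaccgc
DSC3, chr18:31042743-31042992, minus strand: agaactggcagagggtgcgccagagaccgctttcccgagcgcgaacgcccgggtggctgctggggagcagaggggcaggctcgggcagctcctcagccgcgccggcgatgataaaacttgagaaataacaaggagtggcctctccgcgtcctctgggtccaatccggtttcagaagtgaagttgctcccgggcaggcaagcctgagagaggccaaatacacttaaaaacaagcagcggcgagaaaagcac
JUP, chr17:41786712-41786961, minus strand: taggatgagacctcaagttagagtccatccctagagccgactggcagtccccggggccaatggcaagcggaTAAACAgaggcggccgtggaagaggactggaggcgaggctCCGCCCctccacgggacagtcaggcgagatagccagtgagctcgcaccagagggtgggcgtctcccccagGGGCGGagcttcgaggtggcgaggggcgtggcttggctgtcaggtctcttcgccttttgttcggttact
DSP, chr6:7541421-7541670, plus strand: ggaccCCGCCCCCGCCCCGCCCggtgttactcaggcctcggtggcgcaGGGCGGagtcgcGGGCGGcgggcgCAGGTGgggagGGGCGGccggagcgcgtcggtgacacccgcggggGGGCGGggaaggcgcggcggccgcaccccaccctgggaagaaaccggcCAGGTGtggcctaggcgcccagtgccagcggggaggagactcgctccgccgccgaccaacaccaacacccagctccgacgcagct

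The window of DSG3 held 42.8% G and C with 4 CpG sites and none of the 3 motifs. DSC3 held 60.4% G and C with 18 CpG sites and likewise no match. The first JUP window (a second RefSeq start is listed) held 63.6% G and C, 1 forkhead core and 2 GC boxes. The second held 66.0% G and C, 2 E-boxes and neither of the other motifs. The DSP window was the richest of the 4, with 78.0% G and C, 33 CpG sites, 2 E-boxes and 7 GC-box matches. Over all 35116 promoter windows of the same length the median was 58.0% G and C and 11 CpG sites, and 11% held TAAACA, 17.5% CACCTG and 42.6% GGGCGG. Of the members, 8 had windows in the table, 10 windows in all. Among those 10 windows, 3 held the forkhead core, 4 the E-box and 7 the GC box, and these counts were not tested against the shares over all windows. PERP and the second DSC2 window each held 1 forkhead core as well. A match is a run of letters and was not tested as a binding site.

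As a check of the labels, the targeted gene came out lower wherever its siRNA was used. FOXF2 had intensities of 123 with FOXF2 siRNA and 259 with control siRNA in MDA-MB-231, and of 143 with FOXF2 siRNA and 241 with control siRNA in MCF10A. The value of 123 was just above that array's background limit of 121. Of 5 basal mammary markers all were above background on both MCF10A arrays, and 1 of them, LAMB3, on both MDA-MB-231 arrays; their summed intensity was 1375 to 1438 in MDA-MB-231 and 12776 to 12859 in MCF10A. Of the 5 mesenchymal markers 5 were above background in MDA-MB-231 and 4 in MCF10A, with sums of 20277 to 27188 in MDA-MB-231 and 10546 to 11497 in MCF10A. VIM made up most of these sums, at 13731 to 19421 in MDA-MB-231 and 7247 to 7981 in MCF10A. SPARC alone of the 5 went the other way, at 189 to 217 in MDA-MB-231 and 233 to 273 in MCF10A. The epithelial marker CLDN4 went against the epithelial markers CDH1 and EPCAM, at 140 on both MDA-MB-231 arrays and not above background in MCF10A. Of 14 markers of fibroblasts, endothelium, blood, melanocytes and heart, 6 were above background on at least 1 array, and their part in the results was not tested. That list summed to 2280 to 2602 in MDA-MB-231 and 1750 to 1800 in MCF10A, and the macrophage marker CD68 had 853 to 1097 in MDA-MB-231 and 316 to 338 in MCF10A. A gene counts as above background where its intensity passes the upper 1% of that array's estimated background, a limit of 121 to 122. In MDA-MB-231, 37.1% of names with FOXF2 siRNA and 37.4% with control siRNA passed it, and in MCF10A 36.8% with FOXF2 siRNA and 36.9% with control siRNA. The names of the members stood for 1 to 3 probes each, and for 1 probe in DSG2, DSG3, PKP2 and PERP.

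Most of the 10 desmosome genes were lower in MDA-MB-231 cells than in MCF10A cells. Of the 10 members, 7 were lower in MDA-MB-231 (JUP, DSP, DSG2, DSG3, DSC3, PKP2 and PERP) and none was higher, by limma, where a call needed an adjusted p (Benjamini-Hochberg) below 0.05 together with at least 2-fold in size. Of all 20747 genes tested, 5.95% were called lower and 5.75% higher by the same rule. Of the 7, DSC3 was above background in MCF10A alone. For 9 of the 10 members both MDA-MB-231 arrays were below both MCF10A arrays, as they were for 25% of all genes tested; PKP1 was the exception. The median log2 difference of the members was -1.52, against 0.03 over all genes tested. The spread in this fit came from genes of similar brightness. With each gene's own spread, on 1 residual degree of freedom, 0 of the 10 members and 0 of all genes passed limma's adjusted p. With that spread, 0 members had an unadjusted p under 0.05, against 2173 of all 20747 genes tested. Differences are on a background-corrected scale (log2 of corrected intensity plus 16), which gives larger ratios for dim genes than the deposited intensities do. In bulk RNA, fewer cells with a transcript and less of it per cell cannot be told apart.

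**Figure D1:**
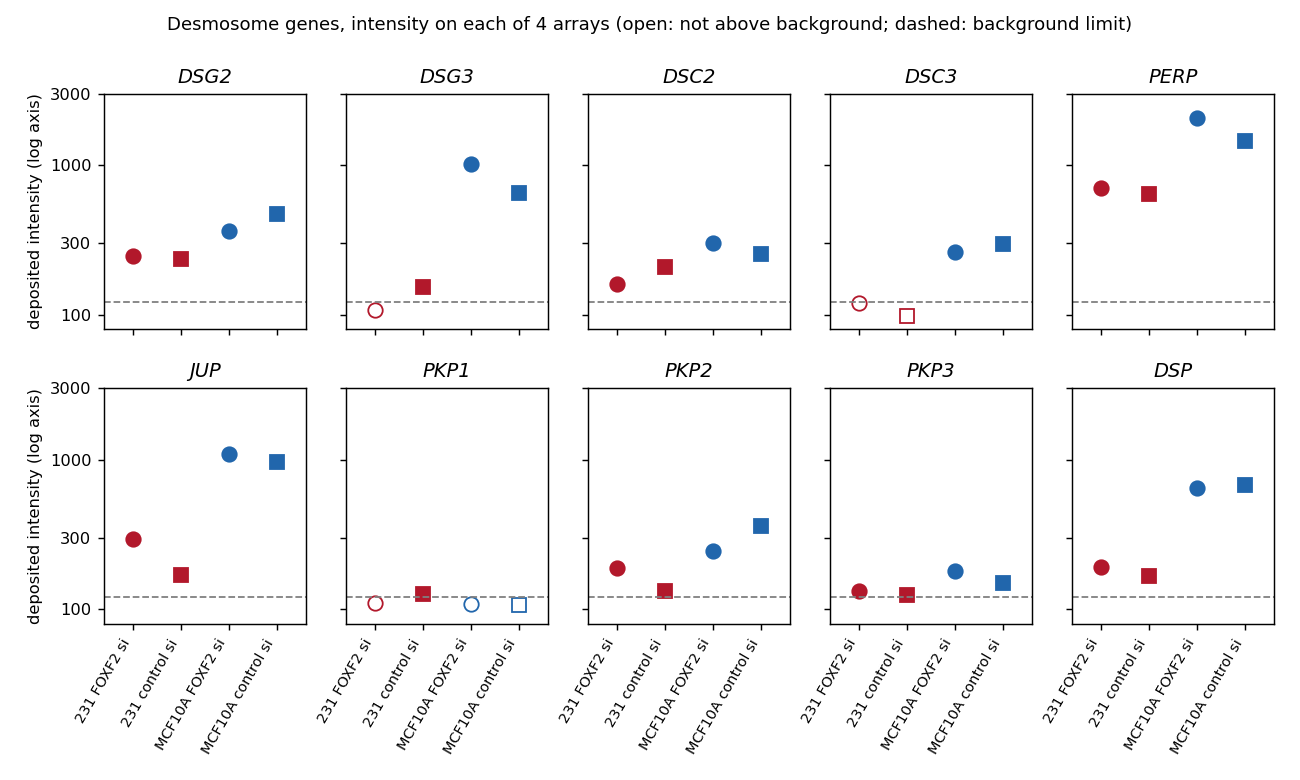
Deposited intensity (log axis) of each desmosome gene on the 4 arrays, with circles for FOXF2 siRNA and squares for control siRNA, MDA-MB-231 in red and MCF10A in blue. Open symbols are not above background, and the dashed line is the mean background limit; 7 genes are above it on all 4 arrays, and the MCF10A symbols are the higher ones for every gene but PKP1.

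Among the cadherins, the fitted difference was -4.15 on the log2 scale for DSG3, the desmoglein of basal keratinocytes and the target of autoantibodies in pemphigus vulgaris. DSG3 had an intensity of 107 with FOXF2 siRNA and 153 with control siRNA in MDA-MB-231, against 1022 with FOXF2 siRNA and 648 with control siRNA in MCF10A. In MDA-MB-231 the control array alone was above background, while both MCF10A values were several times the limit. The fitted difference (SE 0.27, limma adjusted p = 3.09e-52) is 17.8-fold on the background-corrected scale and rests in part on a value that is only an upper limit. The deposited intensities gave MCF10A over MDA-MB-231 ratios of 9.51 with FOXF2 siRNA and 4.23 with control siRNA.

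Its partner DSC3 was above background in MCF10A alone. It had 121 with FOXF2 siRNA and 98.2 with control siRNA in MDA-MB-231, and 264 with FOXF2 siRNA and 297 with control siRNA in MCF10A. On the background-corrected scale DSC3 was at least 5.51-fold lower in MDA-MB-231. The bound sets the MCF10A mean of DSC3 against the lowest signal called above background on the MDA-MB-231 arrays, or the gene's own value where that was higher. Only its MCF10A arrays let DSC3 into the test. The limma adjusted p of 1.22e-14 thus sets signal against background and is no separate support. The bound holds for that scale only: the deposited intensities gave MCF10A over MDA-MB-231 ratios of 2.19 with FOXF2 siRNA and 3.02 with control siRNA, and the fitted log2 difference of -2.83 became -1.88 with an offset of 50 and -1.36 without background correction. Later bounds are on the same corrected scale, and deposited ratios beside them are MCF10A over MDA-MB-231 unless another direction is given.

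The broadly used cadherins differed less between the lines. DSG2 had 248 with FOXF2 siRNA and 235 with control siRNA in MDA-MB-231, against 364 with FOXF2 siRNA and 469 with control siRNA in MCF10A. It was 2.10-fold lower in MDA-MB-231 (log2 difference -1.07, SE 0.25, limma adjusted p = 0.000215). DSC2 had 162 with FOXF2 siRNA and 210 with control siRNA in MDA-MB-231, against 299.9 with FOXF2 siRNA and 256 with control siRNA in MCF10A. Its log2 difference of -0.98 (SE 0.28, limma adjusted p = 0.00398) passed the p threshold and was just short of the size required for a call; in limma without a trend its adjusted p was 0.144 (0.00169 to 0.68 over its alternatives). All 8 values of DSG2 and DSC2 were above background. The difference of DSG2 no longer counted without background correction (-0.77), with an offset of 50 (-0.93) or in limma without a trend (adjusted p = 0.0883; 5.98e-05 to 0.577 over its alternatives).

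The genes of the plaque proteins JUP and DSP were both lower in MDA-MB-231. JUP, which encodes plakoglobin and is shared with adherens junctions, had 295 with FOXF2 siRNA and 171 with control siRNA in MDA-MB-231. In MCF10A it had 1089 with FOXF2 siRNA and 964 with control siRNA. JUP was 7.06-fold lower in MDA-MB-231 (log2 difference -2.82, SE 0.23, limma adjusted p = 1.31e-32), and the deposited intensities alone gave MCF10A over MDA-MB-231 ratios of 3.69 with FOXF2 siRNA and 5.65 with control siRNA.

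DSP, the plakin that links the plaque to keratin, had 193 with FOXF2 siRNA and 168 with control siRNA in MDA-MB-231, against 643 with FOXF2 siRNA and 680 with control siRNA in MCF10A. It was 6.17-fold lower in MDA-MB-231 (log2 difference -2.63, SE 0.25, limma adjusted p = 4.1e-24). The 2 arrays of each line lay close together for DSP, far from those of the other line. PERP had 706 with FOXF2 siRNA and 637 with control siRNA in MDA-MB-231, against 2058 with FOXF2 siRNA and 1442 with control siRNA in MCF10A. PERP, also known as a target of the p53 family, was 2.80-fold lower in MDA-MB-231 (log2 difference -1.48, SE 0.20, limma adjusted p = 3.51e-12), and was well above background on every array.

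The 3 plakophilins did not share one pattern. PKP2, the plakophilin of simple epithelia and heart, had 191 with FOXF2 siRNA and 134 with control siRNA in MDA-MB-231, against 245 with FOXF2 siRNA and 359 with control siRNA in MCF10A. It was 2.95-fold lower in MDA-MB-231 (log2 difference -1.56, SE 0.29, limma adjusted p = 1.42e-06; without background correction the difference was -0.89 and no longer counted). PKP3, found in most epithelia, had 134 with FOXF2 siRNA and 124 with control siRNA in MDA-MB-231, and 180 with FOXF2 siRNA and 150 with control siRNA in MCF10A. Its log2 difference of -0.85 (95% interval -1.61 to -0.10) had a limma adjusted p of 0.114. PKP1, the plakophilin of the upper layers of stratified epithelium, was barely above background on the MDA-MB-231 control array (126) and not above it on the others (107 to 109.9), so no difference between the lines could be measured.

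**Figure D2:**
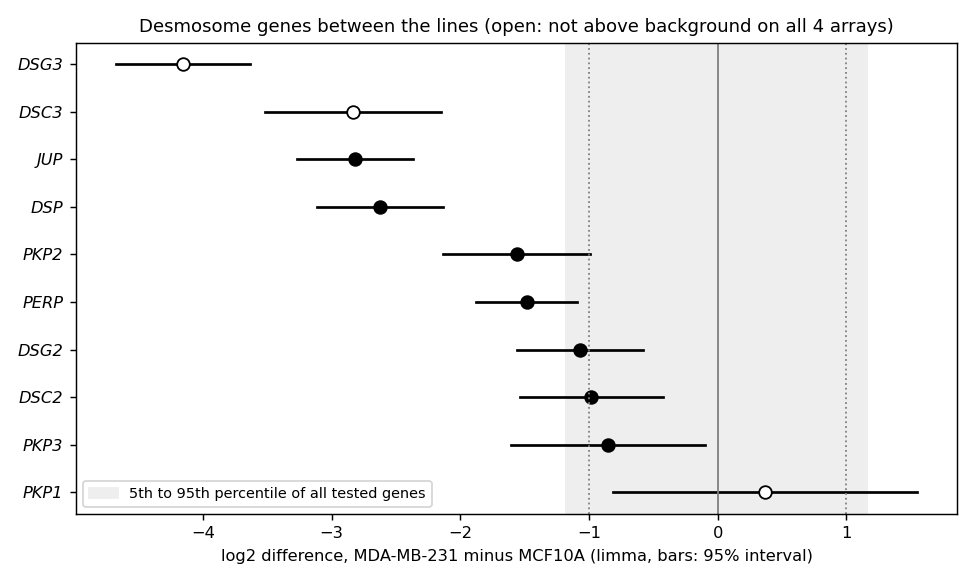
Log2 difference, MDA-MB-231 minus MCF10A, of each desmosome gene (x axis) with its 95% limma interval as a bar, the grey band marking the 5th to 95th percentile of all genes tested. Open symbols were not above background on all 4 arrays. The values run from -4.15 for DSG3 to 0.37 for PKP1, which was above background on 1 array only and has no measured difference.

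The size of the gap between the lines differed with the siRNA the arrays had received. PKP2 differed by -0.60 between the FOXF2 siRNA arrays and by -2.52 between the control siRNA arrays on the log2 scale. JUP differed by -2.26 and -3.38 in the same order, and DSC2 by -1.50 and -0.46. For DSG3 the difference was -4.74 or lower (a bound on the corrected scale) between the FOXF2 siRNA arrays and -3.07 between the control siRNA arrays. The gap was thus narrower with FOXF2 siRNA for PKP2 and JUP and wider for DSC2 and DSG3, with 1 array behind each value. By size alone, 6 members were at least 2-fold lower in MDA-MB-231 between the FOXF2 siRNA arrays, against 7.98% of all genes, and 7 between the control siRNA arrays, against 7.63%. The 7 were those called by limma. The 6 held DSC2, which limma did not call, and lacked PKP2 and DSG2 (-0.78).

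Averaged over both lines, no member passed the test of FOXF2 siRNA against control siRNA. By limma none of the 10 rose and none fell at an adjusted p under 0.05, and 1 had an unadjusted p under 0.05, as did 5.45% of all genes; over all genes tested 0.13% rose and 0.0868% fell. That member was JUP, with a mean log2 difference of 0.75 (SE 0.23, 95% interval 0.30 to 1.20, limma adjusted p = 0.197), positive in both lines. The intervals of the others reached from -1.46 for PKP1 to 1.18 for PKP3. PERP and PKP3 were also higher with FOXF2 siRNA in both lines, with means of 0.36 (95% interval -0.04 to 0.75) and 0.43 (-0.33 to 1.18).

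Within MDA-MB-231, JUP and PKP2 were the members at least 2-fold higher with FOXF2 siRNA. That made 2 of the 9 members above background on at least 1 of its arrays, against 1.2% of all such genes. None was at least 2-fold lower, against 1.38%. JUP had 295 with FOXF2 siRNA and 171 with control siRNA, a log2 difference of 1.31 or 2.48-fold; the ratio of the deposited intensities was 1.73. PKP2 had 191 with FOXF2 siRNA and 134 with control siRNA, a log2 difference of 1.13 or 2.19-fold, with a deposited ratio of 1.42, and its control value was not far above the limit of 121. With no background correction neither reached 2-fold. DSG3, not above background with FOXF2 siRNA, was at least 1.91-fold lower on the corrected scale, with a deposited ratio of FOXF2 siRNA over control siRNA of 0.701 and a log2 difference of -0.51 without background correction, and DSC2 had a log2 difference of -0.71. At 1.5-fold, JUP and PKP2 were higher (7.3% of all genes) and DSG3 and DSC2 lower (7.46%).

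Smaller values were found for DSP (0.38), PKP3 (0.31), PERP (0.17) and DSG2 (0.12) in MDA-MB-231. PKP1 was above background with control siRNA alone, with a deposited ratio of FOXF2 siRNA over control siRNA of 0.869, and DSC3 was above background with neither. The robust SD of log2 differences over all genes above background on both MDA-MB-231 arrays was 0.37, so these 4 values lay near or within it. The median over the 9 members was 0.17, against 0.00 over all genes.

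Within MCF10A no member reached 2-fold in either direction, against 1.7% of all genes higher and 1.14% lower. DSG3 was the most increased, with 1022 with FOXF2 siRNA and 648 with control siRNA (log2 difference 0.74, 1.67-fold). PKP2 was the most decreased, with 245 with FOXF2 siRNA and 359 with control siRNA (log2 difference -0.78). These 2 genes alone passed 1.5-fold, against 8.04% of all genes higher and 6.82% lower. PKP3 and PERP had differences of 0.55 and 0.54, DSC2 of 0.33 and JUP of 0.19. DSG2, DSC3 and DSP had differences of -0.46, -0.25 and -0.09. The robust SD over all genes in MCF10A was 0.34, and the median of the 9 members was 0.19, against 0.00 over all genes.

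**Figure D3:**
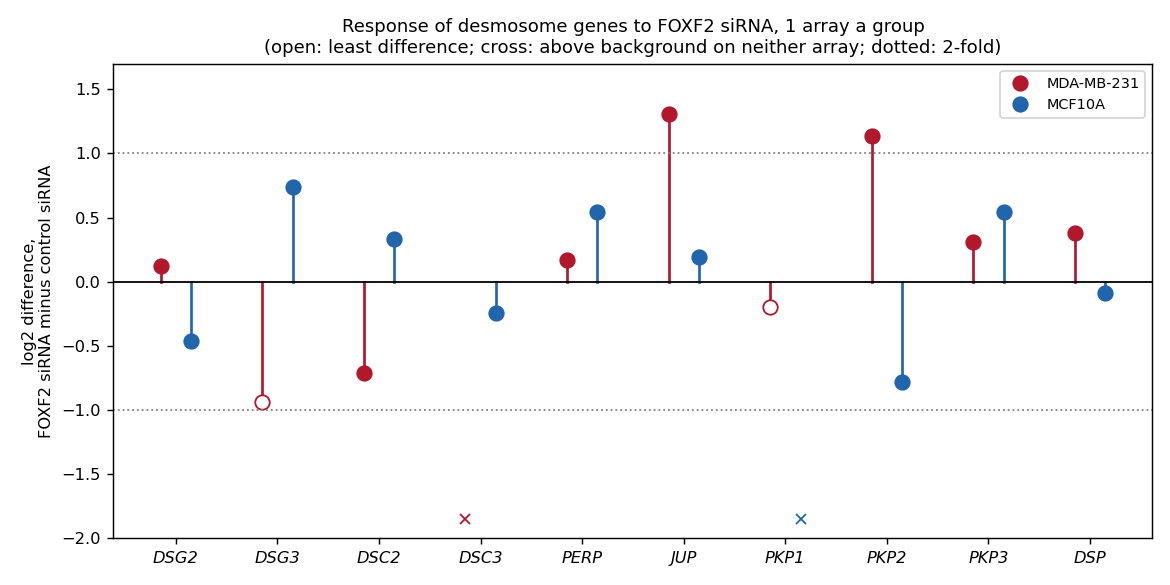
Log2 difference, FOXF2 siRNA minus control siRNA, of each desmosome gene in MDA-MB-231 (red) and MCF10A (blue), 1 array a group. Open symbols are least differences against background on the corrected scale, crosses mark genes above background on neither array, and dotted lines mark 2-fold; JUP (1.31) and PKP2 (1.13) in MDA-MB-231 pass it.

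Opposite directions of the siRNA difference in the lines were found for 47.5% of all genes above background in both. They were found for 5 of the 8 such members, so they are not particular to the members. PKP2 was higher with FOXF2 siRNA in MDA-MB-231 and lower in MCF10A, and DSG2 and DSP had the same signs with smaller values. DSG2 in MDA-MB-231 (0.12) and DSP in MCF10A (-0.09) lay within the robust SD of the line. DSG3 and DSC2 were lower in MDA-MB-231 and higher in MCF10A. The difference in response could not be tested, because a model with a separate response for each line leaves no spread to test against.

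Of the 10 members, 4 lie on chromosome 18 in the cluster of desmosomal cadherin genes. In the RefSeq order of protein-coding genes the cluster reads DSC3, DSC2, DSC1, DSG1, DSG4, DSG3, DSG2, so that DSC3 and DSC2 are separated from DSG3 and DSG2 by DSC1, DSG1 and DSG4, with CDH2, the N-cadherin gene, before the cluster and TTR, the transthyretin gene, after it. The neighbours did not share one pattern between the lines. DSG4, the desmoglein of hair, had 178 with FOXF2 siRNA and 167 with control siRNA in MDA-MB-231, and 166 with FOXF2 siRNA and 165 with control siRNA in MCF10A (limma adjusted p = 0.856). It lies between DSG1 and DSG3. DSC1 and TTR were not above background on any array, and DSG1, the desmoglein of the upper epidermis, passed the limit on the MCF10A arrays alone (134 with FOXF2 siRNA and 123 with control siRNA). CDH2 was at background in MDA-MB-231 (109 with FOXF2 siRNA and 115 with control siRNA) and had 1289 with FOXF2 siRNA and 981 with control siRNA in MCF10A, at least 29.7-fold lower in MDA-MB-231 on the corrected scale, with deposited ratios of 11.9 with FOXF2 siRNA and 8.53 with control siRNA. These cadherins are similar in sequence, and whether their probes cross-hybridize was not tested.

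**Figure D4:**
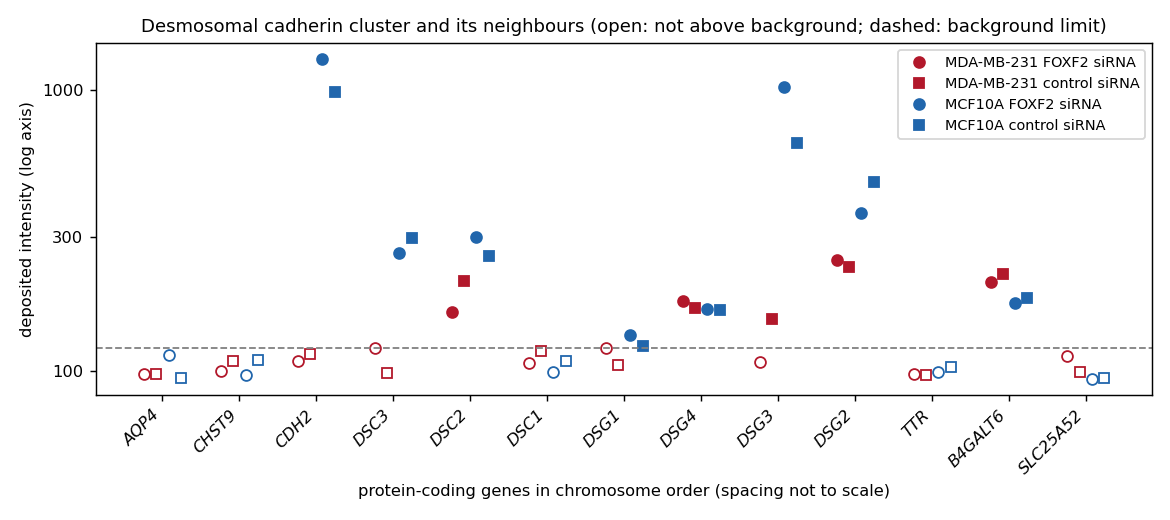
Deposited intensity (log axis) of the desmosomal cadherin cluster and neighbouring protein-coding genes in chromosome order, spacing not to scale, on the 4 arrays. Levels are to be compared within a gene only. DSG3, DSC3, DSG2, DSC2 and CDH2 are higher in MCF10A, whereas DSG4 lies at 165 to 178 on all arrays.

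The remaining genes of the desmosome and its partners were described by lists. Of 8 other desmosomal and plakin genes, 6 were tested, 1 was lower in MDA-MB-231 and 1 higher, with a median log2 difference of 0.10. PPL, encoding the plakin periplakin, was above background in MCF10A alone and lower in MDA-MB-231 (limma adjusted p = 8.05e-12, which likewise sets signal against background). Its deposited ratios were 3.59 with FOXF2 siRNA and 1.63 with control siRNA, and the bounds on the corrected scale were log2 differences of -3.03 with FOXF2 siRNA and -1.29 with control siRNA. EVPL, encoding its partner envoplakin, was 2.08-fold higher on the corrected scale (limma adjusted p = 8.93e-05), and PKP4, a plakophilin relative, had a log2 difference of 0.65 (0.0208). With FOXF2 siRNA, PPL had a mean log2 difference of 0.85 (adjusted p = 0.733), from 372 with FOXF2 siRNA against 172 with control siRNA in MCF10A.

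Of 10 adherens junction genes, 8 were tested, 3 were lower in MDA-MB-231 and none was higher, with a median of -0.64. The 3 were the classical cadherins: CDH1 (E-cadherin) was at least 26.6-fold lower on the corrected scale, with deposited ratios of 9.91 with FOXF2 siRNA and 9.74 with control siRNA, and CDH2 is given above. Neither CDH1 nor CDH2 was above background in MDA-MB-231, so only their MCF10A arrays let them into the test. CDH3 (P-cadherin), above background on 1 MDA-MB-231 array, had 127 with FOXF2 siRNA and 104 with control siRNA there, against 1761 with FOXF2 siRNA and 1634 with control siRNA in MCF10A. The catenin genes CTNNA1 and CTNNB1 had differences of -0.15 and 0.38 (limma adjusted p = 0.718 and 0.539). NECTIN1 had the largest mean siRNA difference of the list, -0.58 (adjusted p = 0.961).

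Of the 8 intermediate filament genes, 4 were lower and 3 higher in MDA-MB-231, and the list's median was -3.07. The basal keratins KRT5, KRT6A, KRT14 and KRT17 were lower. None of these 4 was above background in MDA-MB-231, so only their MCF10A arrays let them into the test. Their calls set signal against background, and the list's median rests in part on them. Their deposited ratios were 65.9, 282, 22.3 and 92.7 in that order with FOXF2 siRNA, and 58.7, 261, 24.9 and 73.6 with control siRNA. The simple keratin KRT8 and VIM, encoding vimentin, were 2.71-fold and 2.16-fold higher on the corrected scale. KRT19, not above background in MCF10A, was also higher, with deposited ratios of MDA-MB-231 over MCF10A of 8.39 with FOXF2 siRNA and 8.02 with control siRNA. KRT19 had a mean siRNA difference of 0.73 (adjusted p = 0.564).

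Of 13 epithelial and EMT transcription factors (EMT is epithelial-mesenchymal transition), 11 were tested, 6 were lower in MDA-MB-231 and none was higher, with a median of -1.46. OVOL2 and TP63, which encodes the p53 relative of basal cells, were lower. Their deposited ratios were 5.63 and 3.04 with FOXF2 siRNA and 6.13 and 5.14 with control siRNA. KLF5 was 4.11-fold lower on the corrected scale, with deposited ratios of 2.05 with FOXF2 siRNA and 2.59 with control siRNA. The others were GRHL3 (deposited ratios of 1.72 with FOXF2 siRNA and 1.48 with control siRNA), SNAI2 (3.30-fold on the corrected scale) and TWIST1 (2.75-fold on that scale). SNAI2 and TWIST1 are known as drivers of EMT. OVOL2, TP63 and GRHL3 were not above background in MDA-MB-231. Only their MCF10A arrays let them into the test, so their calls set signal against background. ZEB1 had 129 with FOXF2 siRNA and 136 with control siRNA in MDA-MB-231 and was not above background in MCF10A (limma adjusted p = 0.27).

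Of 9 genes of desmosome turnover, 8 were tested and 1, PRKCA, was higher in MDA-MB-231, with a median of 0.14. PRKCA, the protein kinase C alpha gene, whose kinase is known to loosen desmosomal adhesion, had 2886 with FOXF2 siRNA and 2094 with control siRNA in MDA-MB-231, against 211 with FOXF2 siRNA and 220.2 with control siRNA in MCF10A. The difference was 18.4-fold on the corrected scale (limma adjusted p = 1.8e-82). Deposited ratios of MDA-MB-231 over MCF10A were 13.7 with FOXF2 siRNA and 9.51 with control siRNA. No gene of these 5 lists rose or fell with FOXF2 siRNA averaged over the lines by limma, and 2, PPL and KRT19, of the 41 genes tested had an unadjusted p under 0.05, against 5.45% of all genes.

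**Figure D5:**
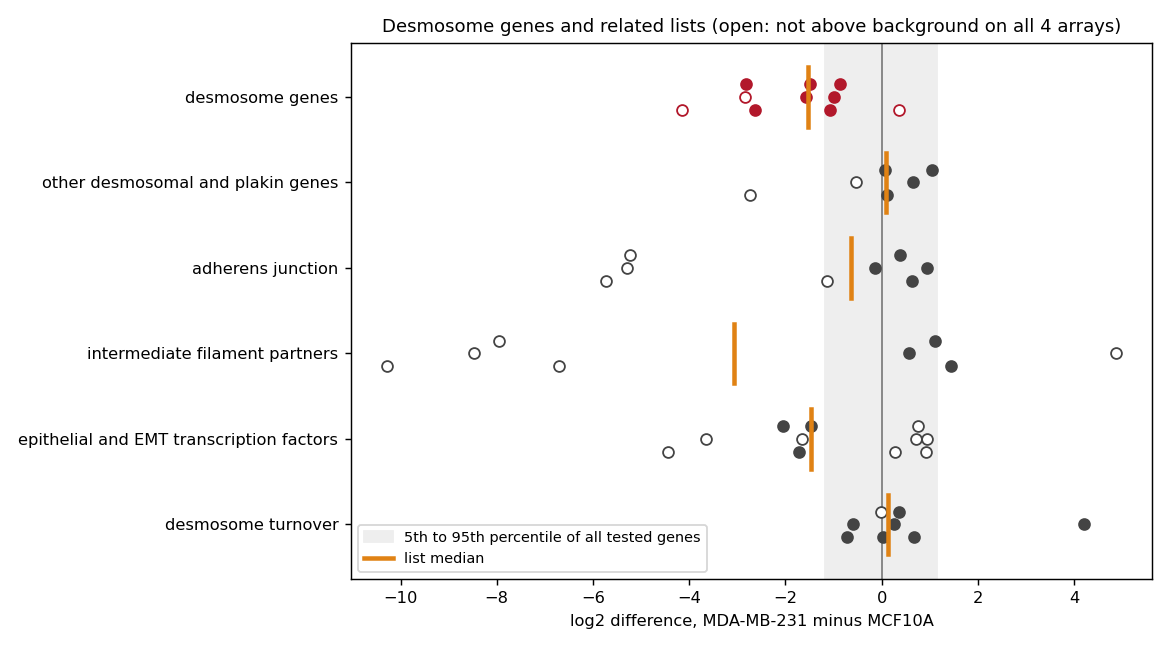
Log2 difference, MDA-MB-231 minus MCF10A, of the desmosome genes (red) and 5 related lists, with each list's median as an orange bar and the 5th to 95th percentile of all genes tested in grey. The desmosome median is -1.52, and PRKCA is the gene at 4.20 in the turnover list.

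The genes other than the 10 members whose values over the 4 arrays lay nearest to the mean profile of the 10 members were LOC728229, HS.22381, ELOVL6 and PELP1, out of 20737. The measure was the Euclidean distance between log2 values centred on each gene's mean, and it was 0.04, 0.06, 0.09 and 0.10. ELOVL6, a fatty acid elongase gene, had 596 with FOXF2 siRNA and 529 with control siRNA in MDA-MB-231, against 1829 with FOXF2 siRNA and 1799.9 with control siRNA in MCF10A. With 4 arrays this likeness mainly reflects the difference between the lines.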

How the data were processed

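Total RNA of 4 cultures was read on Illumina BeadChips with biotinylated cRNA, per the labels' protocols. The values are the authors' deposited table of linear intensities, 1 row per gene name; how they normalized it and summarized the probes of a name is not stated there. A second, probe-level table was not used for values, since its 8 columns of per-sample values match no sample's labels. The background of an array was set at the peak of the density of values under 140 (bandwidth 1.5), with the SD of the values below that peak. Intensities were corrected with normexp in limma 3.58.1 (R 4.3.3), 16 was added and log2 taken.

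Genes above background on at least 1 array (20747) entered a limma model of line plus siRNA, with trended eBayes, 1 residual degree of freedom and Benjamini-Hochberg adjustment. The prior degrees of freedom were infinite, so each gene's spread came from genes of similar brightness (median prior SD 0.40). The arrays of a line stood in for replicates. Within a line, differences were described by size. The fit was checked on simulated data. Older array names were matched through RefSeq synonyms, and 1 list gene, KAZN, was not matched. Named were all members, FOXF2, up to 3 genes per list with the largest line or siRNA differences, and the 4 nearest profiles; other genes were named after their values were seen. Members, lists and tests were chosen with earlier results of these data known.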

Additional observations from a re-analysis of the deposited data

Results flagged for a closer look

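For 5 members the difference between FOXF2 siRNA and control siRNA had opposite directions in the 2 lines, as it did for 47.5% of all genes above background in both; the difference in response was not tested, since each group had 1 array. Given as the response in MDA-MB-231 minus the response in MCF10A on the log2 scale, the difference was 1.92 for PKP2, -1.04 for DSC2, 0.59 for DSG2 and 0.48 for DSP. For DSG3 it was -1.67, taking, on the corrected scale, the least difference in MDA-MB-231, where the FOXF2 siRNA array was not above background.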

How the results depend on the processing

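The number of members lower in MDA-MB-231 was 5 to 7 under 9 of the 10 limma alternatives, among them 5 without background correction, 6 with an offset of 50 and 6 in limma without a trend. By size alone, with no test, it was 6 between the FOXF2 siRNA arrays and 7 between the control siRNA arrays. The 6 held DSC2, which limma did not call in the main fit, and lacked PKP2 and DSG2. With each gene's own spread (1 residual degree of freedom) the number of members lower in MDA-MB-231 was 0, and 0 of all genes passed. At an unadjusted p under 0.05 there were 0 members, against 2173 of all 20747 genes tested. The absence of calls with that spread shows that the calls rest on the spread borrowed from genes of similar brightness. The deposited arrays already had medians of 111.4 to 111.6 and background limits of 121 to 122. Scaling to a common median and quantile normalization, which each gave 7 members, could therefore change little. Over all genes, 658 were lower and 568 higher in MDA-MB-231 without background correction, against 1235 and 1193. For the siRNA effect averaged over the lines no member passed under any of the 10 alternatives; over all genes 16 rose without a filter on dim genes, against 27, and 0 passed in limma without a trend (986 had an unadjusted p under 0.05) or with each gene's own spread (942). Members at least 2-fold higher with FOXF2 siRNA in MDA-MB-231 were 0 without background correction and 1 with an offset of 50, against 2, and 1 was at least 2-fold lower when the background limit was the upper 5%, against 0. At 1.5-fold, 2 were lower in MDA-MB-231, and 1 was higher and 1 lower in MCF10A. The FOXF2 difference was -1.08 without background correction and -1.56 with an offset of 50 in MDA-MB-231, against -2.25, and -0.75 and -1.06 in MCF10A, against -1.45. No result turned its direction where it was called. Leaving out an array could not be fitted, since 3 arrays leave no residual degree of freedom. The model of line plus siRNA already sets the siRNAs against each other within each line, and the labels carry no replicate numbers for any further pairing. Signal over background limits the precision of PKP1 in both lines and of DSC3 and DSG3 in MDA-MB-231. PKP3 in MDA-MB-231 also lay near the limit of 121, at 134 with FOXF2 siRNA and 124 with control siRNA. So did FOXF2 in MDA-MB-231 with FOXF2 siRNA, at 123, and the FOXF2 difference of -2.25 rests on that value.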
